A study of Mus musculus with 224 samples.

Results

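Gene expression in the medial prefrontal cortex (PFC) was compared between mice that drank ethanol between cycles of chronic intermittent ethanol (CIE) vapor and mice that received the same vapor but only water. The arrays were chosen by their labels alone, as those of medial prefrontal cortex from CIE mice, and all probesets were used. This gave 24 of the 47 PFC arrays of the series, 12 from CIE Drinking and 12 from CIE NonDrinking mice, each from 1 male C57BL/6J mouse with a number of its own. The series also holds 47 arrays of the nucleus accumbens (NAC), 42 of the hippocampus (HPC), 45 of the stria terminalis bed nucleus (BNST) and 43 of the central amygdala (CeA), and mice that breathed air (Air Drinking and Air NonDrinking). All mice were bought at 10 weeks of age. Vapor was given for 16 h on each of 4 days in 4 cycles together with injected ethanol (1.6 g/kg) and pyrazole (1 mmol/kg), an inhibitor of ethanol breakdown, and Air mice received pyrazole without ethanol. CIE Drinking mice had 6 weeks of baseline drinking before vapor and then, from 72 h after each cycle, access to 15% (v/v) ethanol for 2 h on each of 5 days. Their tissue was taken 22 h after the last access, and that of CIE NonDrinking mice about 8 days after the last vapor. Drinking, the total amount of ethanol and the time since the last ethanol therefore cannot be told apart in this comparison. Air Drinking mice followed the same drinking schedule, including the 6 baseline weeks, and their tissue was also taken 22 h after the last access. Air NonDrinking mice received no ethanol, so that the Air groups compare drinking with no ethanol at all.

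The PFC is a layered cortex that steers choice and restraint, and its excitatory neurons, inhibitory interneurons and glia are all represented in a dissected piece. Excitatory neurons of upper and deep layers and of the thin layer 6b carry different marker genes. Oligodendrocytes wrap axons in myelin, and astrocytes support synapses. In such bulk RNA, fewer cells of a type and less RNA per cell cannot be told apart.

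Markers of cortical excitatory neurons were measured in the labelled tissue beside striatal ones. Slc17a7 (vesicular glutamate transporter), Tbr1, Fezf2 and Cux2 (cortical transcription factors) had mean log2 levels of 8.93, 9.18, 10.03 and 8.24. Drd1, a dopamine receptor abundant in the striatum, had a mean of 9.41 and ranged between 9.08 and 10.14 in CIE Drinking mice and between 8.61 and 10.16 in CIE NonDrinking mice. Drd2, another dopamine receptor, had a lower mean of 5.53. It ranged between 4.50 and 7.55 in CIE Drinking mice and between 4.42 and 7.22 in CIE NonDrinking mice. The array of CIE Drinking mouse 4 stood apart from its group. It was the lowest CIE Drinking array in 327 of the 518 probesets that are called higher below, and the highest in 181 of the 325 called lower. CIE NonDrinking mouse 34 was the highest of its group in 162 of the 325.

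Drinking after vapor was accompanied by changes in both directions. By limma, 843 of 45037 probesets, or 1.87%, passed an adjusted p of 0.01, of which 518 (1.15%) were higher and 325 (0.722%) lower in CIE Drinking than in CIE NonDrinking mice. The rises had a median log2 fold change of 0.35 and the falls of -0.22, against -0.02 over all probesets, and 102 rises but 10 falls reached a size of 0.5. An unadjusted p under 0.05, in either direction, was found for 9968 of the 45037 probesets, which is the base for such counts in the gene lists below. This base includes many dim probesets, whereas the list members are the probesets of highest mean of their genes. When probesets below the median level were left out, 6458 of 22519 had such a p. That is a larger share, so that the base is low for lists of bright genes. With each gene represented by its probeset of highest mean in the PFC, called its brightest, 218 of 18193 genes (1.2%) changed, 92 higher (0.506%) and 126 lower (0.693%). Without the array of CIE Drinking mouse 4, 1546 probesets passed, among them 509 of the 518 rises and 317 of the 325 falls. Without CIE NonDrinking mouse 35, 492 passed, and without CIE Drinking mouse 2, 546. The plot of all probesets shows the larger size of the rises.

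**Figure D1:**
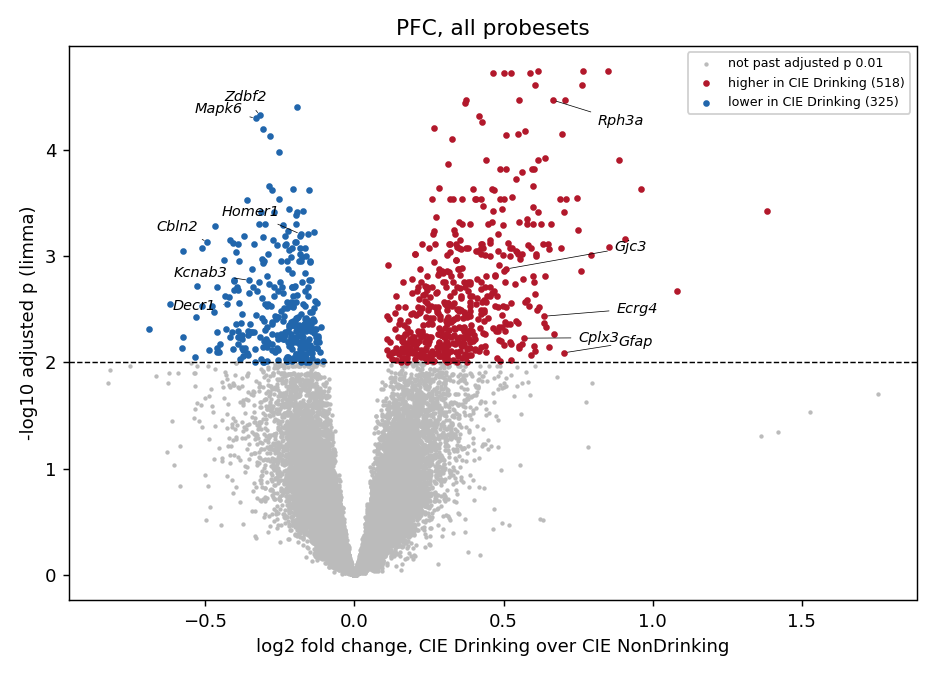
Each point is 1 of the 45037 probesets, with the log2 fold change of CIE Drinking over CIE NonDrinking on the x axis and -log10 of the limma adjusted p on the y axis. The dashed line is the adjusted p of 0.01, which 518 probesets passed as higher (red) and 325 as lower (blue), and genes described in the text are named at their probeset of highest mean.

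The largest falls among genes that passed the test included ligands that organize synapses. Cbln2, which encodes cerebellin 2, a secreted protein that links neurexins to glutamate receptors of the delta type, had the largest. Its log2 level had a lowest value of 8.31, a median of 8.50 and a highest value of 8.72 in CIE Drinking mice, against 8.60, 8.98 and 9.40 in CIE NonDrinking mice, and 9 of 12 CIE Drinking arrays lay below every CIE NonDrinking array. The log2 fold change was -0.49 (SE 0.09, adjusted p = 0.000741 by limma). Nxph1 encodes neurexophilin 1, another secreted partner of neurexins. It measured 8.61, 8.77 and 9.10 (lowest, median and highest log2 level) in CIE Drinking mice and 8.89, 9.09 and 9.40 in CIE NonDrinking mice, and its log2 fold change was -0.31 (SE 0.06, limma adjusted p = 0.000665). Its next probeset, with a mean of 8.77, gave -0.04 and did not pass. Of the 7 measured cerebellins and partners, Cbln2 alone passed the test, against 0.693% of all genes called lower. Cbln4, its close relative, had a median of 5.41 in CIE Drinking mice and of 6.24 in CIE NonDrinking mice and missed it (log2 fold change -0.62, adjusted p = 0.0158 by limma).

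Mapk6, an atypical MAP kinase, and Zdbf2, an imprinted zinc finger gene, fell with few overlapping arrays. Mapk6 had log2 levels of 8.84, 9.08 and 9.19 (lowest, median, highest) in CIE Drinking mice and of 9.16, 9.37 and 9.66 in CIE NonDrinking mice, and its log2 fold change was -0.33 (SE 0.05, adjusted p = 5.1e-05, limma). Its dimmer probesets, with means of 5.95, 5.51 and 5.08, gave -0.10, 0.12 and -0.01 and did not pass. Zdbf2 had 8.91, 9.07 and 9.26 in CIE Drinking mice and 9.22, 9.36 and 9.68 in CIE NonDrinking mice, and its log2 fold change was -0.32 (SE 0.05, limma adjusted p = 4.78e-05). In both genes 11 of 12 CIE Drinking arrays lay below all CIE NonDrinking arrays, so that the groups overlapped by single arrays. Kcnab3, a beta subunit of voltage-gated potassium channels, fell by 0.35 on the log2 scale (SE 0.07), with a median of 6.58 in CIE Drinking mice and of 6.87 in CIE NonDrinking mice. Its second probeset, with a mean of 6.35, gave -0.10 and did not pass. The other falls among the 12 largest that passed were Tmem200a, Plekhf2 (an endosomal protein), Pam (the enzyme that amidates neuropeptides), Dipk2a, Hrh1 (the histamine H1 receptor) and Sidt1, with log2 fold changes between -0.34 and -0.29. Dipk2a and Hrh1 missed the threshold in 12 and 11 of the 24 fits without 1 array, with the highest adjusted p by limma (0.0167 and 0.0157) without CIE NonDrinking mouse 43 for Dipk2a and 35 for Hrh1, and Plekhf2 in 5. Rgs4, which dampens signaling through G proteins, was called lower by 3 probesets, whose log2 fold changes were -0.26, -0.30 and -0.57.

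Decr1, a mitochondrial reductase needed to oxidize unsaturated fatty acids, was the second largest fall that passed, but its CIE Drinking arrays formed separate clusters. Its log2 level was at most 8.24 in 7 CIE Drinking mice (1 to 6 and 20) and ranged between 8.72 and 9.00 in the other 5, against 8.63 to 8.99 in the 12 CIE NonDrinking mice. The log2 fold change was -0.43 (SE 0.09, adjusted p = 0.00285 by limma, 0.0157 with only the 24 arrays in the fit). No Air array in the PFC was below 8.67. The second probeset gave the same division, with 5.54 to 5.82 in those 7 mice, 6.18 to 6.40 in the other 5 and 6.02 to 6.56 in CIE NonDrinking mice, but Air NonDrinking arrays reached down to 5.74 on it. In the hippocampus the arrays labelled with mouse 1 to 4 ranged between 8.54 and 8.63, whereas those labelled 5, 6 and 20 ranged between 9.21 and 9.41, the other 5 CIE Drinking mice between 8.97 and 9.39 and CIE NonDrinking mice between 8.86 and 9.54. The NAC had 8.92 to 9.02 in the 3 arrays of mouse 1, 3 and 4, and 9.46 to 9.55 in mouse 5, 6 and 20. The other 5 CIE Drinking mice had 9.26 to 9.54 there and CIE NonDrinking mice 9.30 to 9.65. Mouse 21 (9.26) also lay below every CIE NonDrinking array of the NAC, and Air Drinking arrays reached down to 9.15. The BNST arrays labelled with mouse 1 to 4 ranged between 8.82 and 9.24 and those of CIE NonDrinking mice between 9.32 and 9.64. In the CeA 7 of 12 CIE Drinking arrays lay below every CIE NonDrinking array (lowest 9.47), those labelled 1 to 4, 6, 10 and 21, so that the division by mouse number differed there. This division was described after the values had been seen, and its source was not tested.

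The largest rise among genes that passed the test was that of Gfap, the intermediate filament of astrocytes. Its log2 level was 7.53, 7.95 and 8.43 (lowest, median, highest) in CIE Drinking mice and 6.49, 7.22 and 7.99 in CIE NonDrinking mice. The groups overlapped, 5 of 12 CIE Drinking arrays lying above every CIE NonDrinking array, and the log2 fold change was 0.70 (SE 0.17, adjusted p = 0.00814 by limma). It missed the threshold in 15 of the 24 fits that left out 1 array, with the highest adjusted p (0.0216, limma) without CIE NonDrinking mouse 35. Its dimmer probesets had 0.24 and 0.34, which did not pass. Of 18 astrocyte markers only Gfap passed, 11 were above 0 and the median log2 fold change was 0.00. Of all genes, 0.506% were called higher and 42.8% were above 0. The list's mean level ranged between 10.43 and 10.57 in CIE Drinking mice and between 10.33 and 10.52 in CIE NonDrinking mice.

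Rph3a encodes rabphilin 3A, a partner of Rab3 on synaptic vesicles. It had log2 levels of 10.31, 11.24 and 11.40 (lowest, median, highest) in CIE Drinking mice and of 10.13, 10.41 and 10.67 in CIE NonDrinking mice. All CIE Drinking arrays but 1 lay above every CIE NonDrinking array, and the log2 fold change was 0.67 (SE 0.10, adjusted p = 3.43e-05, limma). Its second probeset, with a mean of 10.42, gave 0.08 and did not pass. Cplx3, complexin 3, binds the fusion machinery of vesicles and marks layer 6b in cortex. It had 9.08, 9.49 and 9.78 in CIE Drinking mice and 7.99, 8.86 and 9.59 in CIE NonDrinking mice, and its log2 fold change was 0.57 (SE 0.13, limma adjusted p = 0.00593). Syt6, a synaptotagmin, rose by 0.33 (SE 0.06). Of 41 genes of vesicle release these 3 rose, and Bsn, the active zone scaffold bassoon, and Napa, an adaptor that helps recycle the fusion machinery, fell by 0.21 and by 0.12. Over all genes 0.506% were called higher and 0.693% lower. The median of the list was -0.03, against -0.01 over all genes.

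The remaining rises among the 12 largest that passed ran from 0.64 to 0.49 on the log2 scale. They were Ecrg4, a secreted peptide precursor, Ms4a4b, a membrane protein of T cells, Ifi27l2a, induced by interferon, Gm21953, Fbxl7, an F-box protein, Gjc3, connexin 29 of myelinating glia, Tnmd, Cidea, a protein of lipid droplets, and Calml4. Ms4a4b and Calml4 were dim, with medians of 4.80 and 4.09 in CIE Drinking mice and of 4.13 and 3.48 in CIE NonDrinking mice. Tnmd had a lowest, median and highest log2 level of 7.14, 7.68 and 7.82 in CIE Drinking mice, against 6.72, 7.05 and 7.51 in CIE NonDrinking mice, and 10 of 12 CIE Drinking arrays exceeded every CIE NonDrinking array. Ifi27l2a was the only called gene among 22 interferon-stimulated genes, of which 17 were above 0 (median 0.06). Of all genes, 0.506% were called higher and 42.8% were above 0. Ifi27l2a and Fbxl7 missed the threshold in 12 and 14 of the 24 fits without 1 array, with the highest adjusted p by limma (0.0158 and 0.0164) without CIE Drinking mouse 2.

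**Figure D2:**
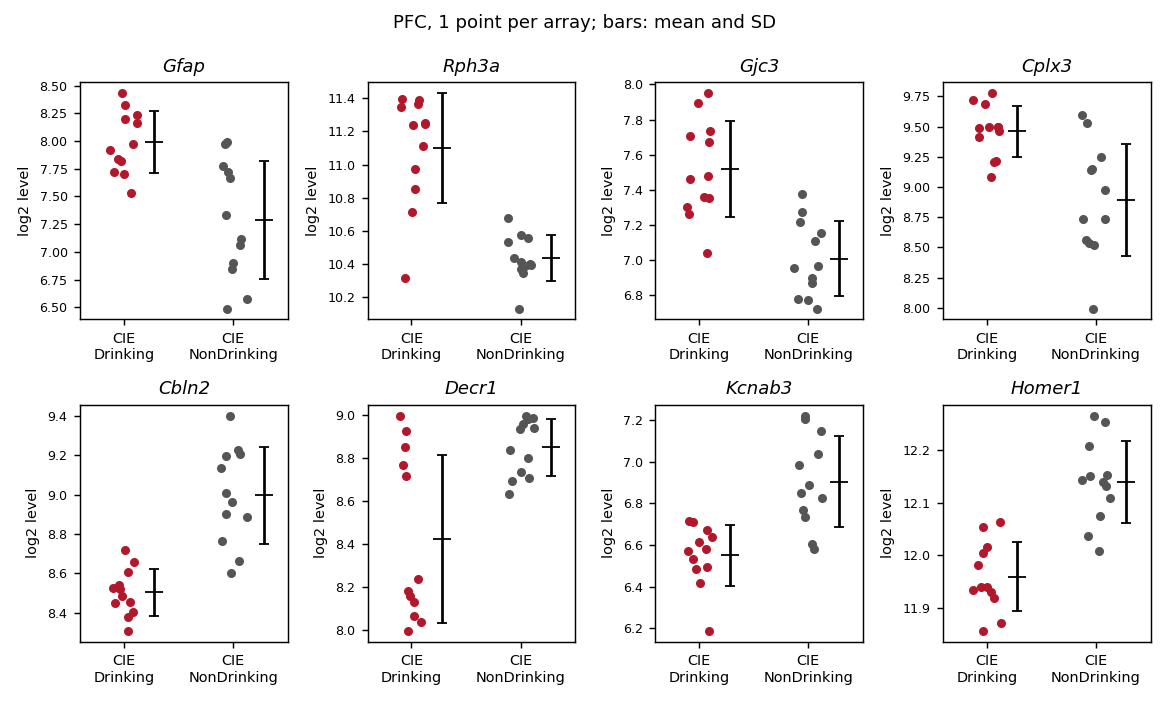
Log2 level of 8 genes in the PFC, with 1 point for each array, CIE Drinking on the left in red and CIE NonDrinking on the right in grey, and the mean and SD of the 12 arrays beside the points. Decr1 has 7 CIE Drinking arrays at 8.24 or below and 5 at 8.72 or above, and 1 CIE Drinking array of Rph3a lies among the CIE NonDrinking arrays.

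Myelin and oligodendrocyte genes were all above 0, and 1 passed the test. The 20 genes lay above 0 with a median log2 fold change of 0.24, where 42.8% of all genes were above 0. Only Gjc3 passed the adjusted threshold, where 0.506% of all genes were called higher. An unadjusted p under 0.05 was found for 16, and for 9968 of all 45037 probesets. Gjc3 had log2 levels of 7.04, 7.47 and 7.95 (lowest, median, highest) in CIE Drinking mice and of 6.73, 6.96 and 7.38 in CIE NonDrinking mice (log2 fold change 0.51, SE 0.10, adjusted p = 0.00133 by limma), and its second probeset gave 0.85. Mobp and Mbp, structural proteins of myelin, had 0.23 and 0.10 and did not pass. The mean level of the list ranged between 9.80 and 10.26 in CIE Drinking mice and between 9.48 and 10.20 in CIE NonDrinking mice. Of 12 regulators of the oligodendrocyte lineage 11 were above 0 (median 0.12), and Olig2, the factor that specifies the lineage, rose by 0.36 (SE 0.08). Its median was 7.90 in CIE Drinking mice and 7.57 in CIE NonDrinking mice.

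Among neurons, 3 markers of layer 6b rose, and most of those of upper layers were below 0. Cplx3, Ccn2 (connective tissue growth factor) and Moxd1 passed as higher of 10 layer 6b and claustrum markers, where 0.506% of all genes did. Their log2 fold changes were 0.57, 0.49 and 0.38, whereas 5 others lay between -0.05 and -0.01. Ccn2 had 11.67, 12.02 and 12.18 in CIE Drinking mice and 10.79, 11.49 and 12.09 in CIE NonDrinking mice, so that the CIE NonDrinking arrays spread more widely downward. Cplx3 and Ccn2 missed the threshold in 10 and 13 of the 24 fits that left out 1 array, with the highest adjusted p by limma (0.0141 and 0.0149) without CIE NonDrinking mouse 41. Of 13 upper-layer markers 12 were below 0 (median -0.19) and none passed by limma. An unadjusted p under 0.05 was found for 5 of them, and for 9968 of all 45037 probesets. The mean level of the upper-layer list ranged between 8.20 and 8.59 in CIE Drinking mice and between 8.27 and 9.17 in CIE NonDrinking mice. Of 14 deep-layer markers 12 were above 0 (median 0.07), and Syt6 passed. Of all genes, 42.8% were above 0 and 57.2% below 0. The median of the upper-layer list means was 8.39 in CIE Drinking and 8.45 in CIE NonDrinking mice. For the myelin list the medians were 10.02 and 9.79, and both lists overlapped between the groups. With the mean levels of the upper-layer and myelin lists as covariates in the fit, a choice made after the values were seen, 1265 probesets passed, 604 of them among the 843. Cbln2, Decr1, Kcnab3, Mapk6, Pam, Zdbf2, Nxph1, Rph3a and Tnmd still passed. Gfap, Cplx3, Ccn2, Olig2, Ecrg4, Tmem200a, Dipk2a, Hrh1 and Sidt1 did not, with adjusted p by limma between 0.0108 and 0.0899. The log2 fold change was then 0.29 for Gfap, 0.25 for Cplx3 and 0.22 for Ccn2, but 0.48 for Ecrg4 and -0.25 for Hrh1. Among those that passed it was -0.28 for Cbln2, -0.45 for Decr1 and 0.73 for Rph3a.

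Ecrg4, which choroid plexus secretes, was examined beside other markers of that tissue. Ttr, transthyretin, the defining transcript of choroid plexus, had 8.34, 10.56 and 12.75 (lowest, median, highest log2 level) in CIE Drinking mice and 8.10, 9.04 and 10.04 in CIE NonDrinking mice, a log2 fold change of 1.53 that missed the threshold (adjusted p = 0.0294 by limma). Of 11 choroid plexus markers 9 were above 0 (median 0.12) and Ecrg4 alone passed. Of all genes, 42.8% were above 0 and 0.506% were called higher. The log2 level of Ecrg4 was 5.41, 6.46 and 6.97 in CIE Drinking mice and 5.27, 5.78 and 6.19 in CIE NonDrinking mice (log2 fold change 0.64, SE 0.14). A dimmer probeset of Ecrg4 gave 1.38, the largest rise among the probesets that passed the test. Another, with a mean of 3.25, gave -0.04 and did not pass. The mean level of the list ranged between 4.68 and 5.74 in CIE Drinking mice and between 4.62 and 4.96 in CIE NonDrinking mice. Whether choroid plexus was carried over, and whether that had a part in the rise of Ecrg4, was not tested. Striatal markers (10, none called by limma, none with an unadjusted p under 0.05) ranged between 7.19 and 9.20 in CIE Drinking mice and between 6.99 and 9.03 in CIE NonDrinking mice.

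**Figure D3:**
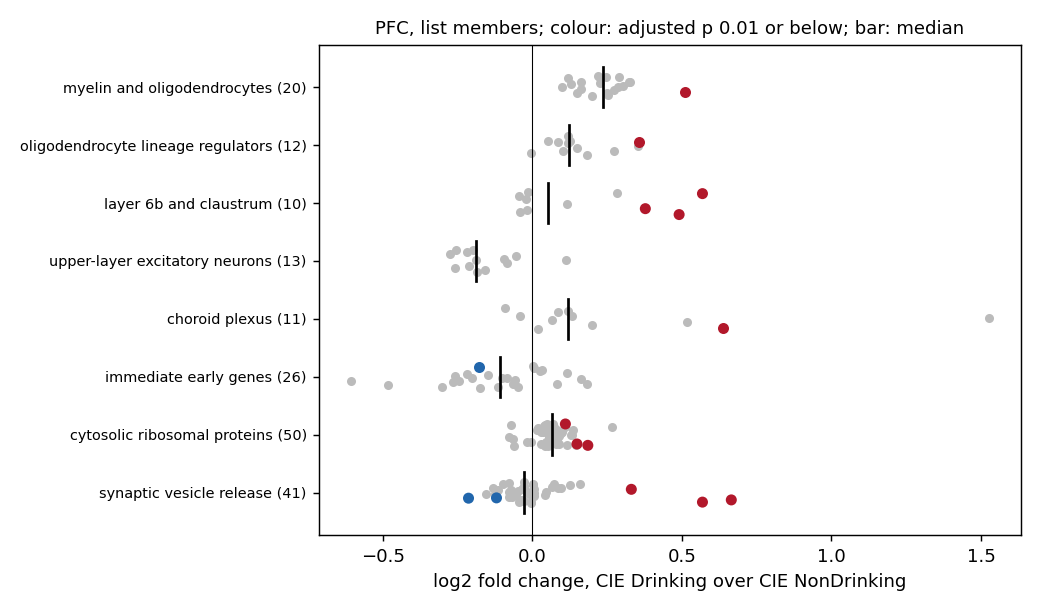
Log2 fold change of CIE Drinking over CIE NonDrinking (x axis) of the members of 8 gene lists in the PFC, 1 point a gene, with the number of genes in parentheses and the median as a bar. Red and blue points passed an adjusted p of 0.01, and the 20 myelin genes all lie right of 0 with 1 of them called.

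Among genes that follow neuronal activity 1 passed the test. Of 26 immediate early genes 18 were below 0, where 57.2% of all genes were, with a median of -0.11. Of these 18, 9 had an unadjusted p under 0.05, and of the genes above 0 it was 1. In either direction, 9968 of all 45037 probesets had such a p. The called gene was Homer1, where 0.693% of all genes were called lower. Homer1, a postsynaptic scaffold with an activity-induced short form, had log2 levels of 11.86, 11.94 and 12.06 (lowest, median, highest) in CIE Drinking mice and of 12.01, 12.14 and 12.27 in CIE NonDrinking mice. Its log2 fold change was -0.18 (SE 0.03, adjusted p = 0.000625, limma). Its other 5 probesets, some of which may report single isoforms, had log2 fold changes between -0.25 and -0.13, none of which passed. Fos, the classic marker of recent activity, spread widely, with 8.49, 9.00 and 10.57 in CIE Drinking mice and 9.25, 10.00 and 10.35 in CIE NonDrinking mice, and missed the threshold (log2 fold change -0.61, adjusted p = 0.0915 by limma). Jun had the opposite sign at 0.18 and also missed it.

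Many activity-induced genes carry cAMP response elements, the sites bound by CREB, so promoters were searched for the full element TGACGTCA and its half-site TGACGT on both strands, every full element also holding the half-site. In RefSeq windows from 250 bases before to 50 bases after a start (GRCm38.p6), 14452 of the 18193 genes had a promoter, of which 422 (2.92%) held the full element and 1591 the half-site. Among the genes called lower, 5 of 100 with a promoter held the full element (5%) and 16 (16%) the half-site, and among those called higher 1 and 8 of 78. The half-site stood in 11 of the 20 immediate early genes with a promoter. The 5 were Zdbf2, Tmem198, Ufsp2, Pdzd8 and Napa. The promoters of Homer1 (chr13:93303507-93303806, plus strand) and Napa (chr7:16098330-16098629, plus strand) are shown as the called activity gene and a called vesicle gene, with the half-site of Homer1 and the full element of Napa in capitals.
Homer1: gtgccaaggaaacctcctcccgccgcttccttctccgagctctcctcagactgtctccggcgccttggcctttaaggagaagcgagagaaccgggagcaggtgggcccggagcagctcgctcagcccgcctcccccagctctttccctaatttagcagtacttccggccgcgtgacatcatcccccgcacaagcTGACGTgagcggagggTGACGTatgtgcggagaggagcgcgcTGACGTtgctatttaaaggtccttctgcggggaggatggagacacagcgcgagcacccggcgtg
Napa: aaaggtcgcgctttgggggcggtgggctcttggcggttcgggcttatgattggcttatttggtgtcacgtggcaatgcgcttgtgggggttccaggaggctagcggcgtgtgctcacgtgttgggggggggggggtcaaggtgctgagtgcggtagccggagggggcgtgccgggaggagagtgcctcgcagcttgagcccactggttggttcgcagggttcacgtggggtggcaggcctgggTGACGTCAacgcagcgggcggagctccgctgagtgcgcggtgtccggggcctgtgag
The window of Homer1 held 3 half-sites the first beginning 56 bases before the start, and that of Napa 1 full element beginning 7 bases before it. A second Homer1 start had none in its window. A match in these letters is a description and not a bound site.

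Few genes of transmission and excitability passed the test. Gria4, an AMPA receptor subunit, was called of 14 AMPA and kainate receptor genes (log2 fold change -0.15, SE 0.04), Cacna2d1, an accessory calcium channel subunit, of 20 calcium and sodium channel genes (-0.12, SE 0.03) and Kcnab3 of 44 potassium channel genes, where 1.2% of all genes were called. The next probesets of Cacna2d1, with means of 10.95 and 7.44, had the opposite sign (0.19 each) and did not pass. For Gria4 the log2 level was 9.78, 9.87 and 9.96 in CIE Drinking mice and 9.91, 10.01 and 10.13 in CIE NonDrinking mice. Gria4 and Cacna2d1 each missed the threshold in 15 of the 24 fits without 1 array, with the highest adjusted p by limma (0.0182 and 0.0196) without CIE NonDrinking mouse 35. None of 11 GABA-A receptor, 6 NMDA receptor or 6 metabotropic glutamate receptor genes was called by limma, with medians of -0.02, -0.02 and -0.08. Of these genes 4, 2 and 2 had an unadjusted p under 0.05, against 9968 of all 45037 probesets. In all, 28 of 50 lists had no called member, their medians lying between -0.19 and 0.10.

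Ribosomal protein genes leaned up by small amounts. Of 50, 44 were above 0, where 42.8% of all genes were, and the median log2 fold change was 0.07. Of these 44, 28 had an unadjusted p under 0.05, and none of the genes below 0 had. In either direction, 9968 of all 45037 probesets had such a p. Rps24, Rpl22 and Rps27l were called higher, by 0.11, 0.15 and 0.19, where 0.506% of all genes were. Rps24 had 13.28, 13.34 and 13.40 in CIE Drinking mice and 13.16, 13.25 and 13.29 in CIE NonDrinking mice, and 3 of its probesets were called. Ribosomal protein genes have many processed copies, with which such probesets can share sequence. In the endoplasmic reticulum list of 24, Dnajc3, a co-chaperone, rose by 0.30 and Hyou1, a chaperone, fell by 0.17. The shares called over all genes were 0.506% higher and 0.693% lower. Igfbp3, which binds insulin-like growth factors, was the only called gene of 15 in the IGF system, with a median of 7.29 in CIE Drinking mice and of 6.90 in CIE NonDrinking mice (log2 fold change 0.38, SE 0.09, adjusted p = 0.00575 by limma).

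On the brightest probeset 1 of 15 DNA methylation genes, 1 of 28 histone acetylation genes and 1 of 9 nuclear noncoding RNAs were called higher, against 0.506% of all genes. None of 31 chromatin remodeling genes was called by limma, with 5 at an unadjusted p under 0.05, against 9968 of all 45037 probesets. Tet1, which oxidizes methylated cytosine, had 8.20, 8.34 and 8.45 (lowest, median, highest) in CIE Drinking mice and 7.94, 8.13 and 8.22 in CIE NonDrinking mice, with 11 of 12 CIE Drinking arrays above every CIE NonDrinking array (log2 fold change 0.22, SE 0.04, adjusted p = 0.000776 by limma). Crebbp, the histone acetyltransferase that CREB recruits, rose by 0.34 (SE 0.06) on its brightest probeset, with a mean of 10.78, whereas its next probesets, with means of 10.19 and 9.97, had a difference of 0.01 or less. Malat1, a noncoding RNA kept in the nucleus, was called higher by 3 probesets (0.45, 0.39 and 0.63) and its other 4 had between -0.02 and 0.23.

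This division between probesets of a gene ran through the rises. Of the 518 rises, 283 (54.6%) were on a probeset other than the gene's brightest and 119 (23.0%) on one with no gene symbol, whereas 92 (17.8%) were on the brightest. Over all probesets these shares were 37.2%, 20.3% and 40.4%, and among the 325 falls 50.8%, 8.31% and 38.8%. In the 260 genes with a rise on another probeset, those probesets had a median log2 fold change of 0.36 and the brightest probeset of the gene of 0.04, with 11 of the brightest probesets called higher and 1 lower. Herc1, a giant ubiquitin ligase, rose by 1.08 on such a probeset, with 7.71, 9.64 and 9.90 in CIE Drinking mice and 7.58, 8.19 and 8.80 in CIE NonDrinking mice, while its brightest probeset had 0.02. Enah, which extends actin filaments, rose by 0.96 and Ddx6, an RNA helicase, by 0.76, and their brightest probesets had 0.02 and -0.01. The 283 probesets were chosen as called higher and the brightest probesets of their genes were not. Part of the contrast between them therefore follows from that choice. Of the dimmer probesets of chromatin remodeling genes 10 of 59 were called higher and 1 lower, and of splicing factors 7 of 170 were called higher, against 1.69% higher and 0.985% lower of all dimmer probesets. Rbm39, a splicing factor, was called higher by 3 of its probesets (0.24, 0.26 and 0.37) and not by its brightest (0.03). Tcf25 was called higher by 2 (0.22 and 0.28) and lower by 1 (-0.20). Atxn10, Cab39l, Clasp2 and Sc5d also had called probesets of either sign. Which transcript forms these probesets report was not tested.

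The same comparison in the other regions separated rises from falls. The regions came from largely the same mice, with 10 to 12 mice of each group shared with the PFC, but from separate arrays. By limma 9 NAC probesets (0.02%), 37 HPC probesets (0.0832%), 178 BNST probesets (0.401%) and 721 CeA probesets (1.64%) passed, of which 8 (0.0178%), 36 (0.081%), 170 (0.383%) and 690 (1.57%) were higher. Of the 518 PFC rises, the log2 fold change was above 0 for 464 in NAC, 455 in HPC, 460 in BNST and 399 in CeA arrays, and 346 (66.8%) were above 0 in all 4, against 16.4% of all probesets above 0 in the PFC. Of the 325 falls, 38 (11.7%) were below 0 in all 4, against 15.6% of all probesets below 0. Rises on the brightest probeset of a gene were above 0 in all 4 regions in 36 of 92 (39.1%), those on another probeset in 212 of 283 (74.9%) and those with no symbol in 88 of 119 (73.9%). Of the rises 132 were also called higher in the CeA, which is 25.5% of the PFC rises and 19.1% of those of the CeA, and 53 in the BNST (10.2% and 31.2%). Of the falls 1 was called lower in the CeA, where 0.0705% of all probesets were, and 1 in the BNST (0.018%). A probeset of Scaf11, a splicing-related protein, and 1 of Smg6, an enzyme of RNA decay, were called higher in 3 other regions. Their log2 fold changes in the PFC were 0.62 and 0.58. Neither was the brightest probeset of its gene, and that of Smg6 was dim, with a mean of 4.55. Rph3a also rose in the BNST (1.01, adjusted p = 0.00404 by limma), and had 0.79 in the CeA, 0.57 in the HPC and 0.15 in the NAC, which did not pass.

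**Figure D4:**
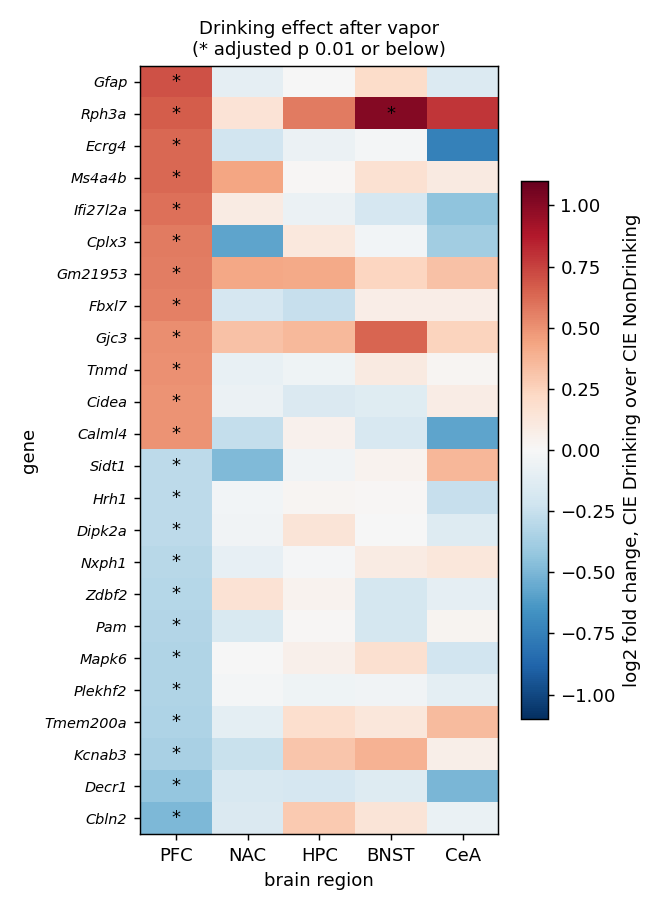
Log2 fold change of CIE Drinking over CIE NonDrinking as colour for the 12 largest rises and 12 largest falls among genes that passed in the PFC (rows) in the 5 regions (columns), with asterisks at an adjusted p of 0.01 or below. Rph3a in the BNST is the one asterisk outside the PFC.

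The difference between the PFC and each other region was tested in 1 fit over all regions. By limma the response differed from that of the NAC in 56 probesets (0.128%), of the HPC in 28 (0.0638%), of the BNST in 154 (0.351%) and of the CeA in 859 (1.96%). Against the NAC the drinking effect in the PFC was higher for Tnmd by 0.58 and lower for Cbln4 by 1.09, and against the HPC it was higher for Syt6 by 0.40. Against the BNST it was lower for Kcnab3, whose log2 fold change was -0.35 in the PFC and 0.38 in the BNST, which itself did not pass there. Against the CeA it was higher for Ifi27l2a, with 0.60 in the PFC and -0.44 in the CeA.

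In mice that breathed air most of the falls had the opposite sign. The Air Drinking and Air NonDrinking groups (11 and 12 arrays) share no array with the CIE groups, and limma called 629 probesets between them (1.4%). Of the 325 falls after vapor 261 (80.3%) had a positive log2 fold change in Air mice, against 40.8% of all probesets below 0 after vapor, with a median of 0.07. Of the 518 rises 232 (44.8%) were negative in Air mice, against 50.8% of all probesets above 0, with a median of 0.01. Among the falls 13 were called higher and 1 lower in Air mice, and among the rises 2 were called higher and 4 lower. The plot of the effect in both pairs of groups shows the falls above the zero line of Air mice, and the rises on both sides of it.

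**Figure D5:**
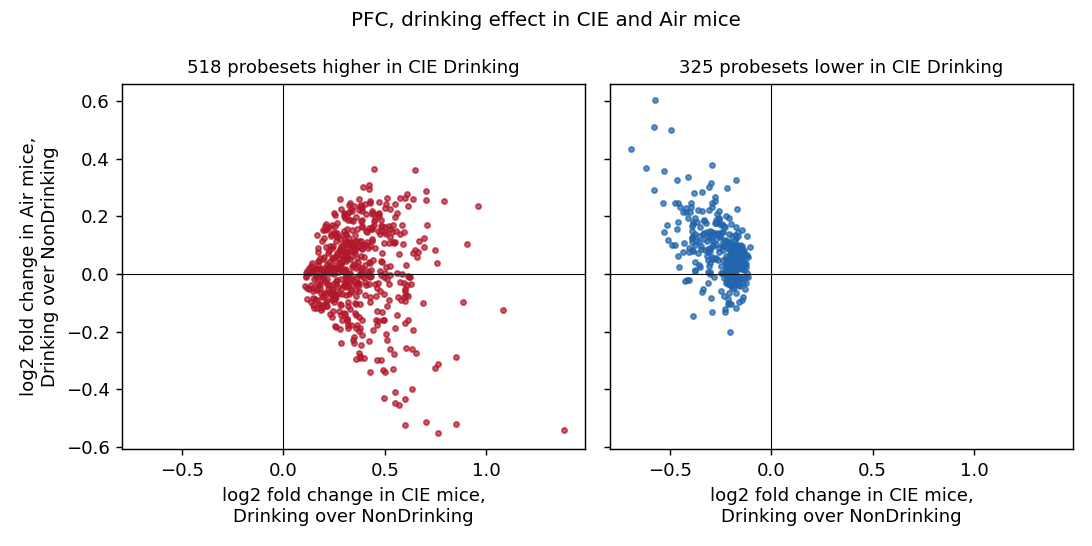
Log2 fold change of Drinking over NonDrinking in CIE mice (x axis) and in Air mice (y axis) for the 518 probesets higher (left, red) and the 325 lower (right, blue) in CIE Drinking mice. Of the falls 261 lie above 0 on the y axis and of the rises 232 below it.

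Tested as an interaction, the effect of drinking in CIE mice minus that in Air mice, 1315 probesets passed by limma (2.92%), 478 positive and 837 negative. Cbln2 illustrates a negative one. Its log2 level was 8.87, 9.04 and 9.47 (lowest, median, highest) in Air Drinking mice and 8.10, 8.68 and 8.95 in Air NonDrinking mice, a log2 fold change of 0.50 (SE 0.09), and the difference of the effects was -0.99 (adjusted p = 6.02e-06 by limma). Gfap illustrates a positive one, with 6.55, 7.02 and 7.69 in Air Drinking mice and 7.02, 7.44 and 8.46 in Air NonDrinking mice, and a difference of 1.22 (adjusted p = 0.00116, limma). The interaction was also past the threshold for Homer1 (-0.32), Mapk6 (-0.51), Cplx3 (1.02), Ccn2 (0.82) and Gjc3 (0.74), and not for Decr1 (-0.40), Malat1 (0.28), Crebbp (0.25) or Dnajc3 (0.10). Rph3a passed with 0.59, its median being 10.96 in Air Drinking and 10.89 in Air NonDrinking mice, both nearer to the 11.24 of CIE Drinking than to the 10.41 of CIE NonDrinking mice.

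That order of the 4 groups was common. Among the 518 rises the mean of the CIE NonDrinking mice was the lowest of the 4 groups in 463 (89.4%) and that of the CIE Drinking mice the highest in 380 (73.4%), against 39.6% and 55.5% of all probesets above 0. For rises on the brightest probeset of a gene the shares were 72.8% and 89.1%, and for those on another probeset 94.0% and 70.7%. Among the 325 falls the CIE NonDrinking mean was the highest of the 4 in 262 (80.6%) and the CIE Drinking mean the lowest in 293 (90.2%), against 40.6% and 57.3% of all probesets below 0. The probesets were chosen by the difference between these groups, so that only the place of the Air means is free in these counts.

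Complete separation of the groups was rare. In 3 rises and 5 falls no CIE Drinking array overlapped a CIE NonDrinking array, and 10 of 45037 probesets did so in all (0.0222%). The rises were Inpp4b, a phosphoinositide phosphatase (on a dimmer probeset), Ccdc71l and Pink1, the kinase that tags damaged mitochondria. Pink1 ranged between 11.91 and 11.99 in CIE Drinking mice and between 11.71 and 11.89 in CIE NonDrinking mice, a log2 fold change of 0.11 (SE 0.03). The falls included Prkca, protein kinase C alpha, which ranged between 11.07 and 11.26 in CIE Drinking mice and between 11.28 and 11.51 in CIE NonDrinking mice (log2 fold change -0.19, SE 0.03, adjusted p = 0.000498 by limma), and Cops6, Aspscr1, Ppp1r3f and 1 probeset without a symbol.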

How the data were processed

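Per the labels, RNA was hybridized to Affymetrix Mouse Genome 430 2.0 arrays, 1 mouse an array. The log2 expression values were deposited by the authors after RMA, quantile normalization within each region and ComBat adjustment for hybridization batch. The batches are not given in the labels, so that no value within a batch could be computed, and an adjustment made before deposit can make p-values too small. Precision is limited by the number of arrays. Values in the PFC ran from 2.63 to 14.4.

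Probesets were fitted with limma (version 3.58.1, R 4.3.3, statmod 1.5.0), with 1 mean for each of the 4 groups over the 47 PFC arrays, and p-values were adjusted by Benjamini-Hochberg over all 45037 probesets (threshold 0.01). Other regions were fitted likewise, and differences between regions with the mouse as a random block (estimated correlation 0.015). Tables and plots were made with Python 3.11.15, pandas 2.3.3, numpy 2.4.6 and matplotlib 3.10.9. The fit was checked on simulated data. A gene was represented by its probeset of highest mean. Genes named were the 12 largest called changes in each direction, up to 4 called members of each of 50 lists, genes with 3 or more called probesets, the 5 largest interactions and the 3 largest differences from each region, in each direction. Non-overlapping genes, Decr1 by mouse, probesets other than the brightest and missed markers were described after their values were seen. Members and lists were chosen with earlier results of these data known. Alternatives were fits with only the 24 arrays, without dim probesets (below the median of 6.10), with trended and robust variances, with array quality weights, with renewed quantile normalization and without each array.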

Additional observations from a re-analysis of the deposited data

Results flagged for a closer look

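The response to drinking differed between CIE and Air mice in 1315 probesets by limma's interaction term, the effect in CIE mice minus that in Air mice. Among genes that passed, the largest negative interactions on the log2 scale were those of Cbln4 (-1.44), Gm12371 (-1.41), Tnnc1 (-1.34), Neurod1 (-1.22) and Ptgfrn (-1.20), and the largest positive ones those of Gfap (1.22), Ecrg4 (1.04), Ifi27l2a (1.03), Cplx3 (1.02) and Cidea (0.93). The genes with these negative interactions did not pass for drinking after vapor, with log2 fold changes between -0.62 and -0.41. In Air mice they passed, with 0.70 to 0.92 (adjusted p between 0.00284 and 0.00919 by limma). The genes with the positive ones passed after vapor and not in Air mice. Cbln4 had medians of 5.41 in CIE Drinking, 6.24 in CIE NonDrinking, 6.09 in Air Drinking and 5.28 in Air NonDrinking mice.

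The response in the PFC differed from that in the NAC in 56 probesets, in the HPC in 28, in the BNST in 154 and in the CeA in 859. Against the NAC the log2 difference, PFC minus the other region, was -1.09 for Cbln4, -0.26 for Zfr, 0.50 for Slc4a8, 0.51 for Ccn4 and 0.58 for Tnmd. Against the HPC it was 0.35 for Sfxn2 and 0.40 for Syt6. Against the BNST it was -1.01 for Foxa1, -0.81 for Lgr5, -0.73 for Kcnab3, 1.32 for Icam5, 1.38 for Egr3 and 1.43 for Rin1. The response of Icam5, Egr3 and Rin1 was 0.03, -0.06 and 0.07 in the PFC, and -1.29, -1.44 and -1.36 in the BNST. Against the CeA it was -0.88 for Kcng1, -0.78 for Ntng1, -0.75 for Gabra2, 0.73 for Pla2g4a, 0.76 for Inpp4b and 1.04 for Ifi27l2a.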

How the results depend on the processing

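No paired analysis was possible because the groups share no mouse numbers. The count of probesets changed in PFC, 843, became 2451 with array quality weights (1338 higher, 1113 lower), 2899 at an adjusted p of 0.05 (1547 higher, 1352 lower) and 1265 with the marker lists as covariates (512 lower). The 218 genes called on their brightest probeset became 148 when p-values were adjusted over those probesets alone. Leaving out 1 array gave 492 to 1546, with 323 to 832 higher and 169 to 714 lower. The interaction count of 1315 became 2607 with weights and 3665 at 0.05. The NAC count of 9 became 17 with trended variances, 55 with weights, 18 with renewed quantile normalization and 0 without dim probesets, where limma gave 4855 at an unadjusted p under 0.05. The HPC count of 37 became 83 with weights and 0 without dim probesets (3880 unadjusted, limma). The BNST count of 178 became 440 with weights, and that of the CeA, 721, became 380 without dim probesets. Without these the PFC differed from the NAC in 20 and from the HPC in 13.

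Of 43 named genes called, 21 passed in all 24 fits without 1 array and 22 missed in at least 1, with 18 missing without CIE NonDrinking mouse 35. With only the 24 arrays, Decr1, Ecrg4, Cplx3, Calml4, Ccn2 and Cacna2d1 missed the threshold, with the covariates 24 genes, with trended variances Gfap and with renewed quantile normalization Napa, Gria4 and Rpl22. With a gene's probesets averaged, the median log2 fold change was -0.079 for GABA-A receptors, -0.074 for glutamate transport, -0.0068 for neurotrophic factors, 0.024 for DNA methylation, 0.039 for chromatin remodeling and 0.023 for nuclear noncoding RNAs, against -0.02, -0.01, 0.03, -0.01, 0.01 and -0.01. With renewed quantile normalization it was 0.024 for DNA methylation and 0.024 for histone acetylation, against -0.01 and 0.04. The cause of these moves was not tested.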
